A study of Homo sapiens with 8 samples.

Results

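Formins are the proteins that start and lengthen unbranched actin filaments. The family was followed here through 10 genes, FMN1, FMN2, FMNL1, FMNL2, FMNL3, DIAPH1, DIAPH2, DIAPH3, DAAM1 and INF2, in a B-cell line induced to make cyclin D1. All probe sets annotated to exactly 1 of these genes were taken, with no filter on level, which gave 47 of the 48854 probe sets on the array. FMN2 and FMNL2 were selected on values from these same arrays, namely their change with wild-type cyclin D1 and the absence of a like change with T286A cyclin D1. Their values are therefore given as a description, with no test. The other 8 genes entered as relatives of that pair, and their differences were tested.

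The cells were JVM13, an established line from a human B-cell prolymphocytic leukaemia. They carried a doxycycline-inducible construct for wild-type cyclin D1 (3 arrays), for T286A cyclin D1 (3 arrays) or for no insert (empty vector, 2 arrays). All groups, the controls included, received 0.1 µg/mL doxycycline. T286A replaces the threonine whose phosphorylation sends cyclin D1 to export from the nucleus and destruction, so the mutant protein is stable. The vector's promoter, the time of induction and the number of separately made populations per construct are not given in the sources used here. The labels also do not say whether the arrays of a group came from separate cultures, so every p-value reflects only how much these samples vary, and that variation may be technical.

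A formin has a proline-rich FH1 domain, which gathers profilin-bound actin, and an FH2 domain, which starts a filament and rides on its growing end. The diaphanous, FMNL and DAAM members are held in a closed state by contact between their own ends until an upstream signal opens them. In lymphocytes formins supply the actin cables and cortex used for migration, for the immune synapse and for cell division. Cyclin D1 activates CDK4 and CDK6, which phosphorylate RB and so release E2F factors, and E2F factors switch on genes of the cell cycle.

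The promoters of the 3 genes that the results turn on are shown first, as the 250 bases before the annotated start in RefSeq (GRCh38.p14). All 10 members matched the RefSeq table, with 16 windows of 300 bases (250 before the start and 50 after it). Each window was searched on both strands for 4 spellings of the E2F motif, TTTGGCGC, TTTCGCGC, TTTCCCGC and TTTGCCGC, which cannot overlap in the match found. Capitals mark the match.
FMN2, chr1:240091633-240091882, plus strand: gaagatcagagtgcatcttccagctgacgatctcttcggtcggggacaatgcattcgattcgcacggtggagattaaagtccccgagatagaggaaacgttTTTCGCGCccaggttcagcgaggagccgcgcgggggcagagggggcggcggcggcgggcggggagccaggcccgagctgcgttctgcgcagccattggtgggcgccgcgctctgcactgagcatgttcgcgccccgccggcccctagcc
FMNL2, chr2:152334924-152335173, plus strand: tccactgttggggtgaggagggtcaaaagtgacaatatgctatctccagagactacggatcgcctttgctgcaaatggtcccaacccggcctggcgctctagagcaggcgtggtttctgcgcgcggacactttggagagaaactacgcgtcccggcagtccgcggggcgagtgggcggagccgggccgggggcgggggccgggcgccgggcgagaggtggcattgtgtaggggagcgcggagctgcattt
DIAPH3, chr13:60163929-60164178, minus strand: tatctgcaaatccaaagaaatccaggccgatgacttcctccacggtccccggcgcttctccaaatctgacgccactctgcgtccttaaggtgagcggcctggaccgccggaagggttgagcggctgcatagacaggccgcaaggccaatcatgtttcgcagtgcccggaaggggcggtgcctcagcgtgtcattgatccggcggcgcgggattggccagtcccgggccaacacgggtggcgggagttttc

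The FMN2 window held the only match among the 16 member windows, TTTCGCGC on the plus strand, which begins 149 bases before the start. Of all 35116 windows in the table, 1164 (3.31%) held at least 1 of the 4 spellings. A match describes these letters and is not a binding site. The windows shown were rich in G and C (68% for FMN2, 66.3% for FMNL2 and 62.7% for DIAPH3, against a median of 58.7% over all windows). They held 38, 27 and 25 CpG pairs, against a median of 14. DIAPH3 has a second annotated start, whose window was 46.7% G and C with 6 CpG pairs.

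Values are on the log2 scale after robust multi-array averaging (RMA), which equalises probe intensities between arrays before the probes of a set are combined. A level or a change is therefore relative to the other genes on the array, and a difference of 1 is a doubling. The medians of the deposited values still ran from 5.47 to 5.62, and the mean of the wild-type medians lay 0.06 below that of the controls (a shift of -0.06). The labelled cell type was checked by its markers. All 7 measured B-cell genes averaged between 7.87 and 13.3, with MS4A1 (CD20) highest. Of 12 genes of T, NK and myeloid cells, 4 exceeded 4.77, a mark for background explained in this paragraph, and ITGAM was highest at 7.61. Of 10 epithelial, stromal and erythroid genes 4 exceeded it, with PECAM1 highest at 8.26. Among all marker probe sets 3 were called at an adjusted p under 0.05 (limma). A CD22 probe set, 1 of 27 of the B-cell genes, was lower in wild type than in the controls by 0.73 (a difference of -0.73, means of 7.29 and 8.02). NCAM1, 1 of 35 of the T, NK and myeloid genes, was lower there as well (means of 4.59 and 5.39), and an ITGAM probe set was higher in T286A than in wild type by 0.80. Their part in the formin results was not tested. CCND1 checked the constructs: 1 of its 4 probe sets (11721256_a_at) read 5.25 and 4.98 in the controls, 10.98, 11.13 and 11.07 in wild type, and 11.25, 10.86 and 10.95 in T286A. The difference between T286A and wild type there was -0.04 (limma, adjusted p = 0.914). As a rough scale for background, 42 probe sets of 16 genes made in other tissues (such as liver, lens and pancreas genes) had a median of 4.28 and a 90th percentile of 4.77. Wild-type replicate 2 stood apart from the other arrays. Its correlation with the other wild-type arrays was 0.994 to 0.995, its median probe set lay 0.0942 from the median of the arrays (0.0673 to 0.0802 elsewhere), and limma's array weight for it was 0.505. Values without it are given where a result rests on it.

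FMN2 was high in the wild-type arrays and low everywhere else. FMN2 is best known from the oocyte, where it works with SPIRE proteins to build the actin mesh that moves the meiotic spindle, and from neurons. Its brightest probe set, 11726141_at, read 4.42 and 4.34 with empty vector, 8.13, 8.14 and 7.81 in wild type, and 4.29, 4.35 and 4.45 in T286A. All 3 wild-type arrays lay far above the other 5, and the T286A and empty vector arrays overlapped. The difference between wild type and empty vector was 3.65 ± 0.113 (SE), which is 12.5-fold on the linear scale. T286A minus empty vector was -0.01 ± 0.113, and T286A minus wild type was -3.66 ± 0.101. Both low groups lay under the 4.77 that marks the dim reference genes, so background in the low arrays limits how large the fold can read.

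A second FMN2 probe set, 11726142_a_at, read 3.90 and 3.70 with empty vector, 6.63, 6.30 and 6.50 in wild type, and 3.80, 3.85 and 3.89 in T286A. Wild type exceeded empty vector by 2.68 ± 0.110 (6.42-fold), with the T286A arrays again among the controls. The third, 11745671_a_at, read 4.46 and 4.37, then 6.36, 5.53 and 5.91, then 4.50, 4.35 and 4.55. Its difference of 1.51 ± 0.201 (2.85-fold) was the most variable, since the wild-type arrays spread over most of a log2 unit. The groups overlapped at the fourth, 11760076_at, with values from 3.66 to 4.20 over the 8 arrays and a difference of 0.20 ± 0.121. Of the 4 FMN2 probe sets, 3 thus separated the wild-type arrays from the rest and 1 did not. Without wild-type replicate 2 the differences were 3.59, 2.77, 1.71 and 0.10.

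FMNL2 went the other way, low in the wild-type arrays and higher in the others. FMNL2 is a target of Cdc42 that lengthens filaments at the edge of lamellipodia and filopodia. Probe set 11719980_a_at read 6.27 and 6.35 with empty vector, 4.78, 4.52 and 4.72 in wild type, and 5.55, 6.30 and 6.06 in T286A. The wild-type arrays lay below all others. T286A replicate 1 was the lowest of the remaining 5 arrays. Wild type minus empty vector was -1.64 ± 0.192, a level 3.11-fold lower. T286A minus empty vector was -0.34 ± 0.192 with overlapping arrays, and T286A exceeded wild type by 1.30 ± 0.172 (2.46-fold). The wild-type mean, 4.67, lay under the background mark of 4.77, which limits how large the folds against wild type can read.

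The second FMNL2 probe set, 11752461_a_at, ran from 4.26 to 4.55 over all 8 arrays, within the range of the dim reference genes. Its difference between wild type and empty vector was -0.19 ± 0.0883. The wild-type arrays (4.26 to 4.37) lay below the controls (4.55 and 4.46) without overlap, as groups did at 28.2% of all probe sets in either direction. The FMNL2 pattern therefore rests mainly on 1 probe set. Without wild-type replicate 2, the lowest array of 11719980_a_at, that probe set's difference was -1.56.

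**Figure D1:**
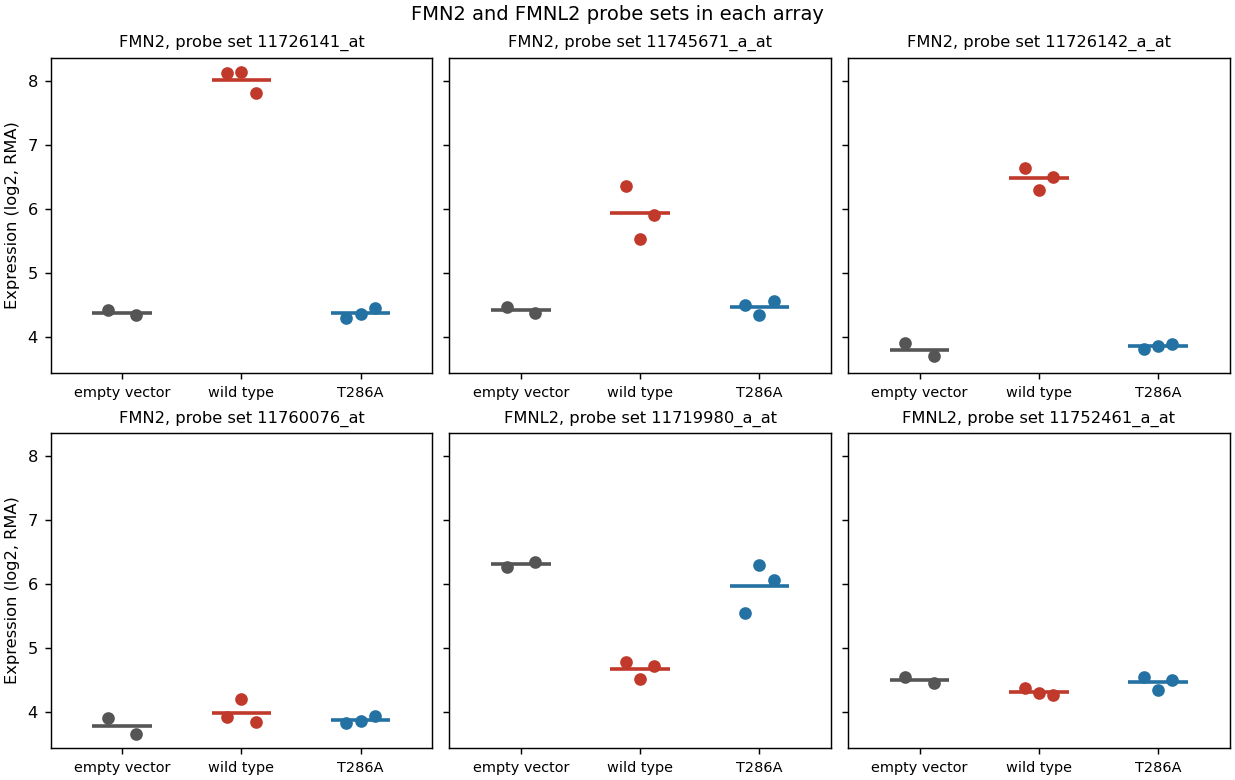
RMA log2 values of the 4 FMN2 and 2 FMNL2 probe sets in each of the 8 arrays, with 1 dot per array and a line at the group mean (empty vector n = 2, wild type n = 3, T286A n = 3). At FMN2 11726141_at the wild-type dots sit between 7.81 and 8.14 and the others between 4.29 and 4.45, while at FMNL2 11719980_a_at the wild-type dots, 4.52 to 4.78, are the lowest.

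Across the family, 4 of 47 probe sets were called in wild type against empty vector at an adjusted p under 0.05 (limma, Benjamini-Hochberg over all probe sets), where 0.798% of all probe sets were called. They were the 3 FMN2 probe sets and the 1 FMNL2 probe set that chose the family, so nothing is read from that count. In T286A against wild type 4 were called as well, 3 of FMN2 and 1 of FMNL2, against 0.526% of all probe sets. The choice of both genes bears on that count too, and nothing is read from it. In T286A against empty vector 2 of 47 were called, against 0.127% of all probe sets, and both were DIAPH3. The median difference over the 47 was -0.02 in wild type against empty vector, -0.01 in T286A against empty vector, and 0.02 between the constructs. Over all probe sets it was 0.00 in each.

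The 41 probe sets of the other 8 genes gave 0 calls in wild type against empty vector by limma's adjusted p. 2 of the 41 were higher and 2 lower at an unadjusted p under 0.05, against 5.17% higher and 6.24% lower over all probe sets. In T286A against empty vector, 2 were higher and 1 lower at that level, against 5.31% and 5.07%. In T286A against wild type 0 of the 41 were called, with 5 higher and 1 lower at an unadjusted p under 0.05, against 6.32% and 5.35%. The groups did not overlap at 14 of the 47 in wild type against empty vector, at 13 in T286A against empty vector and at 11 in T286A against wild type. Over all probe sets those shares were 28.2%, 29.8% and 17.4%, and without FMN2 and FMNL2 the counts were 9, 13 and 7 of 41. Among these 41 the 95% interval of a difference from empty vector reached 0.263 to each side in the median, so smaller changes could not be resolved for many of them.

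**Figure D2:**
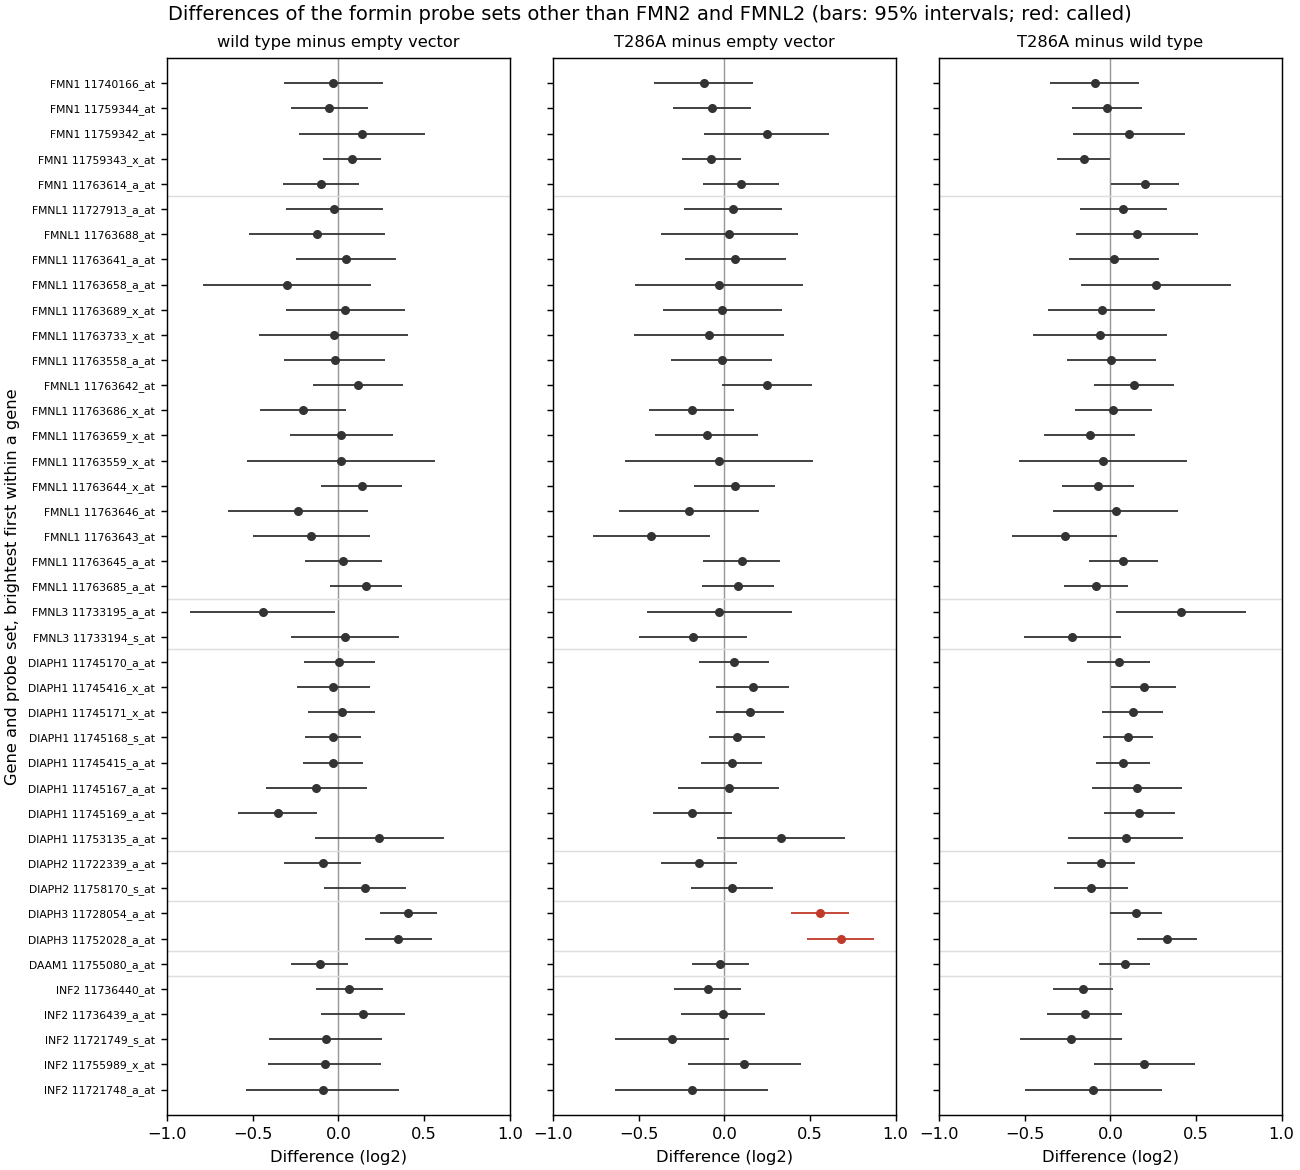
Log2 differences of the 41 probe sets of the 8 formin genes other than FMN2 and FMNL2, with 95% intervals from the limma fit, for wild type minus empty vector, T286A minus empty vector and T286A minus wild type. The 2 DIAPH3 probe sets in the middle panel, at 0.56 and 0.68, are the only ones called (red), and most intervals cross 0.

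Among the other tested members, DIAPH3 was the gene that moved. DIAPH3 (mDia2) is a diaphanous formin that builds actin for the contractile ring in dividing cells. Probe set 11728054_a_at read 9.38 and 9.39 with empty vector, 9.80, 9.79 and 9.78 in wild type, and 9.97, 9.86 and 9.99 in T286A. The 3 groups did not overlap, with T286A highest. T286A exceeded empty vector by 0.56 ± 0.0736 (1.47-fold, 95% interval 0.39 to 0.72; limma adjusted p = 0.0441). Wild type exceeded it by 0.41 ± 0.0736 (0.24 to 0.57), which missed the threshold (limma adjusted p = 0.0511).

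The second DIAPH3 probe set, 11752028_a_at, ordered the groups in the same way. It read 7.85 and 7.75 with empty vector, 8.12, 8.07 and 8.26 in wild type, and 8.47, 8.52 and 8.44 in T286A. T286A exceeded empty vector by 0.68 ± 0.0855 (1.60-fold, 0.48 to 0.87; limma adjusted p = 0.0424), and wild type by 0.35 ± 0.0855 (limma adjusted p = 0.139). The direct difference between T286A and wild type was 0.33 ± 0.0765 here (0.16 to 0.50; limma adjusted p = 0.148) and 0.15 ± 0.0658 at the first probe set (limma adjusted p = 0.428), so the constructs were not shown to differ.

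Both DIAPH3 calls stood close to the threshold. Leaving out any 1 of the 8 arrays ended both, with adjusted p-values that ran up to 0.327, and without wild-type replicate 2 they were 0.0568 and 0.0505 (limma). Over the alternatives tried the differences themselves stayed between 0.52 and 0.60 and between 0.63 and 0.73, and the calls held in 4 of 16 and 4 of 15 alternatives. The wild-type difference of 11728054_a_at passed the threshold in 5 of 16 alternatives.

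Genes of cytokinesis, the step of division that DIAPH3 serves, had median differences above 0 and no call. The list held 20 genes such as ANLN, ECT2, KIF23 and PRC1, of which 16 were measured by 52 probe sets. Several probe sets read the same gene, with 12 for BIRC5 alone. In wild type against empty vector 0 were called by limma's adjusted p, with 21 higher and 2 lower where the unadjusted p was under 0.05. In T286A against empty vector 0 were called, with 35 higher and 0 lower. In T286A against wild type 0 were called, with 10 higher and 0 lower. At that level the shares of all probe sets higher and lower were 5.17% and 6.24%, 5.31% and 5.07%, and 6.32% and 5.35%, in the same order. The median differences of the 52 were 0.18, 0.29 and 0.11, where the median of all probe sets was 0.00. Both comparisons with the controls use the same 2 arrays.

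The cytokinesis genes with the smallest p-values did not pass the test. KIF23, a kinesin of the central spindle, differed by 0.47 ± 0.0948 in wild type against empty vector (limma adjusted p = 0.0745). BIRC5 (survivin), part of the chromosomal passenger complex, differed by 0.39 ± 0.0694 in T286A against empty vector (limma adjusted p = 0.0831), and CEP55, a protein of the midbody, by 0.43 ± 0.0782 (limma adjusted p = 0.0864). In T286A against wild type, MYH9, the heavy chain of a non-muscle myosin, differed by 0.29 and PRC1, which bundles spindle microtubules, by 0.20 (limma adjusted p = 0.224 and 0.28). With a prior spread that follows the level, 6 of the 52 were called in wild type and 21 in T286A against empty vector, all higher. The same prior raised the calls over all 48854 probe sets from 390 to 1129 and from 62 to 988. In RNA from a whole culture, more cells in division and more RNA per dividing cell cannot be told apart.

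**Figure D3:**
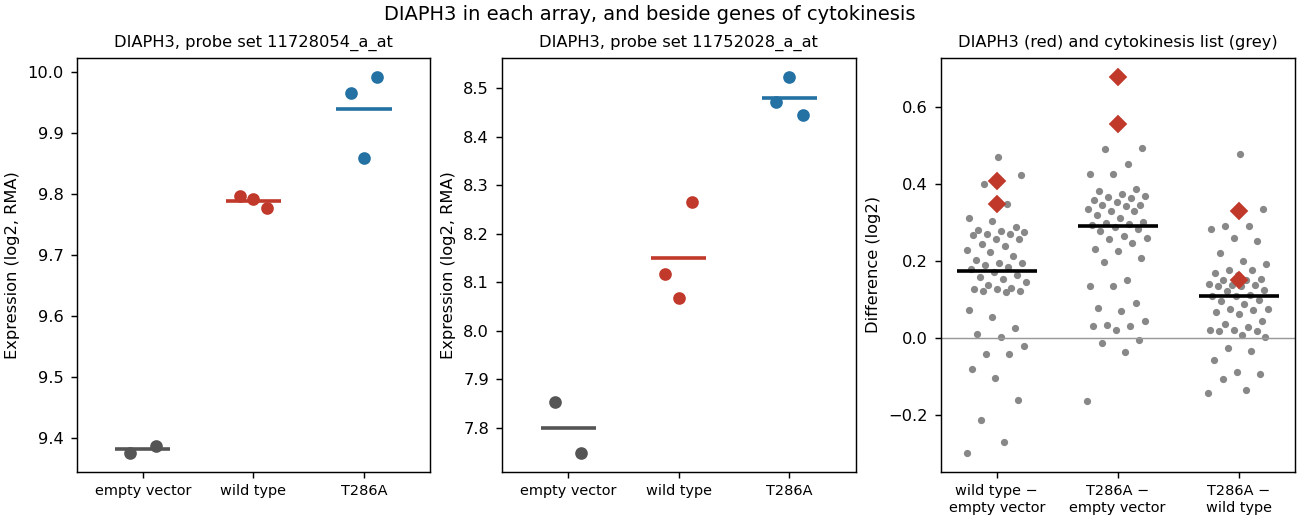
RMA log2 values of both DIAPH3 probe sets by array, with a line at each group mean, and the log2 differences of the 52 cytokinesis probe sets (grey dots, black line at their median) beside those of DIAPH3 (red diamonds). The DIAPH3 arrays are lowest in empty vector and highest in T286A without overlap, and the list medians are 0.18, 0.29 and 0.11.

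The other diaphanous genes did not pass the test in any comparison. DIAPH1 (mDia1), the main diaphanous formin of blood cells, had 8 probe sets, all above 4.77. The brightest, 11745170_a_at, averaged 9.51 ± 0.12 (SD, n = 2) with empty vector, 9.52 ± 0.11 (n = 3) with wild type and 9.57 ± 0.023 (n = 3) with T286A. Its difference between wild type and empty vector was 0.01, with a 95% interval from -0.20 to 0.21. Probe sets of DIAPH1 disagreed: 11745169_a_at read 7.77 and 7.97 with empty vector and 7.54, 7.63 and 7.39 with wild type, without overlap and with a difference of -0.36 ± 0.102 (limma adjusted p = 0.205). At 11753135_a_at the same difference was 0.24 ± 0.164 (limma adjusted p = 0.657). Over the 8 probe sets T286A minus wild type ran from 0.05 to 0.19, and the smallest limma adjusted p was 0.423.

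DIAPH2, a diaphanous formin also linked to endosome movement, had 2 probe sets. The brighter, 11722339_a_at, averaged 8.45 with empty vector, 8.36 in wild type and 8.30 in T286A. Its T286A arrays (8.34, 8.29 and 8.27) lay just below the control arrays (8.52 and 8.38), by 0.15 ± 0.0983 (95% interval of T286A minus empty vector -0.37 to 0.08; limma adjusted p = 0.685). DAAM1, a formin that binds Dishevelled of the Wnt pathway, was read by 1 probe set, 11755080_a_at, at 10.16 and 10.14, then 10.08, 9.99 and 10.04, then 10.07, 10.18 and 10.12. Wild type minus empty vector was -0.11 there (95% interval -0.28 to 0.06), with the wild-type arrays just below the controls.

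INF2, a formin that also severs filaments and acts at contacts between the endoplasmic reticulum and mitochondria, had 5 probe sets, 4 of them above 4.77. Its brightest, 11736440_at, read 7.58 and 7.54 with empty vector, 7.58, 7.54 and 7.76 in wild type, and 7.49, 7.46 and 7.45 in T286A. The T286A arrays were the lowest, by 0.16 ± 0.0768 against wild type (limma adjusted p = 0.472). Over the 5 probe sets the differences from empty vector ran from -0.09 to 0.14 in wild type and from -0.31 to 0.12 in T286A.

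FMNL1, the formin most restricted to white blood cells, where it supports phagocytosis and migration, had 16 probe sets, 7 of them above 4.77. The brightest, 11727913_a_at, averaged 7.56 ± 0.15 (n = 2), 7.54 ± 0.21 (n = 3) and 7.61 ± 0.059 (n = 3) in empty vector, wild type and T286A, with all groups overlapping. The 95% interval of wild type minus empty vector ran from -0.31 to 0.26. The largest FMNL1 difference, -0.43 ± 0.15 for T286A minus empty vector at 11763643_at, came from a dim probe set (3.98 to 4.63 over the arrays) and did not pass the test (limma adjusted p = 0.363). None of the 16 probe sets passed in any of the 3 comparisons.

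FMNL3, the closest relative of FMNL2, gave a value of the same sign as FMNL2, on which 1 array weighed heavily. Probe set 11733195_a_at read 6.16 and 6.11 with empty vector, 5.94, 5.29 and 5.84 in wild type, and 5.89, 6.19 and 6.22 in T286A. Wild-type replicate 2, at 5.29, was by far the lowest. The difference was -0.44 ± 0.186 (limma adjusted p = 0.414), and it was -0.24 without that array. The second FMNL3 probe set, 11733194_s_at, differed by 0.04 in the same comparison.

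FMN1, which acts at adherens junctions and in limb development, stayed dim, with all 5 probe sets averaging under 4.77. Its brightest, 11740166_at, ranged from 4.15 to 4.57 over the 8 arrays. The smallest limma adjusted p of FMN1 was 0.421, for T286A minus wild type at 11759343_x_at (-0.16), and at 11763614_a_at the same comparison gave 0.20.

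The 5 formins outside the 10 members, DAAM2, FHOD1, FHOD3, FHDC1 and GRID2IP, were read by 8 probe sets and gave 0 calls in each comparison (limma). At an unadjusted p under 0.05, 1 was lower in wild type and 2 in T286A against empty vector, and 0 in T286A against wild type. Over all probe sets 6.24%, 5.07% and 5.35% were lower at that level. FHOD3, a formin of the sarcomere, had the smallest p-value. Its probe set 11750565_a_at read 8.29 and 8.51 with empty vector, 8.09, 8.02 and 8.13 in wild type, and 8.0, 8.20 and 8.18 in T286A. The differences from empty vector were -0.31 ± 0.0983 (limma adjusted p = 0.249) and -0.27 ± 0.0983 (limma adjusted p = 0.38). Both construct groups lay below the controls without overlap.

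Direct partners of formins gave no call. The 19 genes, of which 18 were measured by 65 probe sets, include the profilins that feed actin to FH1 and the SPIRE proteins that work with FMN2. Where limma's unadjusted p was under 0.05, the counts were 0 higher and 2 lower for wild type against the controls, 0 and 1 for T286A against the controls, and 2 and 2 between the constructs. Over all probe sets the share per direction ran from 5.07% to 6.32% in these comparisons. SPIRE1 differed by 0.24 between T286A and wild type (limma adjusted p = 0.341). PFN2, a profilin, differed by -0.32 in the same comparison (limma adjusted p = 0.166). BAIAP2, a membrane-bending partner of the diaphanous formins, had a difference of -0.65 in wild type against the controls (limma adjusted p = 0.318). It was -0.18 without empty vector replicate 2, and -1.13 without empty vector replicate 1, where it was called (limma adjusted p = 0.0451; 1 of 14 alternatives).

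The nucleators that compete with formins for actin gave no call either. The Arp2/3 complex, which makes branched filaments, and its activators were measured by 76 probe sets of 22 of 28 genes, with 0 called in each comparison. By limma's unadjusted p under 0.05 there were 1 higher and 6 lower for wild type against the controls, 3 and 9 for T286A against the controls, and 2 and 4 between the constructs. Over all probe sets 5.17% and 6.24%, 5.31% and 5.07%, and 6.32% and 5.35% were higher and lower at that level. The other nucleators and elongators, such as ENAH and VASP, were measured by 30 probe sets of 9 genes and also gave 0 calls, with 0 higher in each comparison and 0, 1 and 2 lower at that level. Target genes of SRF and its cofactor MRTF, which respond to actin assembly by formins, gave 0 calls over 71 probe sets of 17 of 18 genes. At that level the counts were 4 higher and 6 lower, 7 and 3, and 4 and 3, with medians of -0.02, 0.01 and 0.06, in the same order.

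Genes that cap, sever and bundle filaments were the part of the actin machinery with calls in wild type. Of 119 probe sets of 31 of 35 genes, 0 were called higher and 5 lower against empty vector, from FSCN1, CAPG and GSN (0.798% of all probe sets were called in either direction). FSCN1 (fascin), which bundles the filaments of filopodia, fell by 0.69 ± 0.0954 on the log2 scale (11715491_s_at, limma adjusted p = 0.0186), with 2 of its 3 probe sets called. CAPG, which caps filament ends, fell by 0.52 ± 0.0724 (11757519_x_at, limma adjusted p = 0.0188), with 2 of 4 called. GSN (gelsolin), which severs and caps, fell by 0.50 ± 0.084 at its single probe set (limma adjusted p = 0.0377). Leaving out either control array, wild-type replicate 1 or wild-type replicate 3 left 0 of the list called. Without wild-type replicate 2, 3 were called, and the limma adjusted p was 0.041 for FSCN1, 0.0477 for CAPG and 0.0867 for GSN, whose call any left-out array ended.

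In T286A 0 of the 119 were called against empty vector, where 0.127% of all probe sets were called. At limma's unadjusted p under 0.05, 7 were higher and 3 lower, against 5.31% and 5.07% of all probe sets. In wild type against empty vector those counts were 2 and 11, against 5.17% and 6.24%. In T286A against wild type they were 15 and 3, against 6.32% and 5.35%. GSN differed by -0.49 in T286A against empty vector (limma adjusted p = 0.0779). FSCN1 was higher in T286A than in wild type by 0.53 ± 0.0854 (limma adjusted p = 0.0396). It was the only call of the list in that comparison, where 0.526% of all probe sets were called. Any left-out array ended that call too, with a limma adjusted p of 0.0943 without wild-type replicate 2.

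None of the 12 measured genes next to FMN2 and FMNL2 on their chromosomes was called in any of the 3 comparisons. Over all probe sets only 0.798%, 0.127% and 0.526% were called, so the absence of calls among 12 genes says little about them. The 3 nearest genes with a probe set on each side were taken, with the brightest probe set of each, which gave RYR2, ZP4 and CHRM3 before and RGS7, KMO and OPN3 after FMN2. In wild type against empty vector these differed by between -0.19 and 0.17, where FMN2 differed by 3.65. KMO, an enzyme of tryptophan breakdown, came nearest to a call: it read 5.55 and 5.43 with empty vector, 5.67, 5.63 and 5.69 in wild type, and 5.32, 5.24 and 5.24 in T286A. Its wild-type arrays thus lay above the other 5. T286A minus wild type was -0.40 ± 0.0674 for KMO (limma adjusted p = 0.0516), and it was called in 4 of 15 alternatives.

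Around FMNL2 the genes were RIF1, NEB and STAM2 before and GALNT13, RPRM and NR4A2 after it. Against empty vector, wild type was -0.09 at the lowest of these 6, where FMNL2 was -1.64. RIF1, a factor of replication timing, differed by 0.37 ± 0.106 in T286A against empty vector (limma adjusted p = 0.245). NEB and RPRM averaged 4.25 and 4.21 with empty vector, under the background mark of 4.77, where a fall could hardly show.

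**Figure D4:**
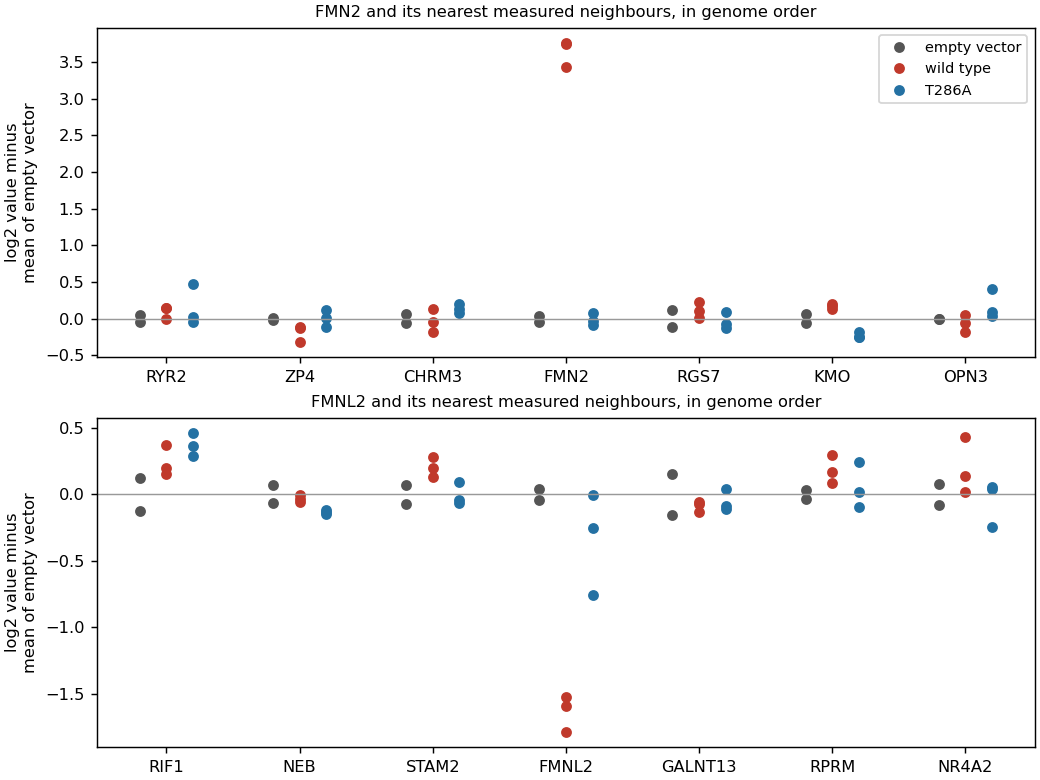
RMA log2 values minus the empty vector mean for FMN2, FMNL2 and the 3 nearest measured genes on each side, in genome order, with 1 dot per array. FMN2 in wild type stands 3.65 above the control mean and FMNL2 lies at -1.64, while the 12 neighbours stay close to 0.

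The genes whose profile over the 8 arrays was most like FMN2 were LAMP5, CBLN2, LGALS14 and SPATA18. Likeness was the root mean square difference between profiles scaled to 0 in the lowest and 1 in the highest array, among 966 probe sets of 794 genes with a range of at least 1. It was 0.0884, 0.0923, 0.0984 and 0.134 in that order, and 0 would be an identical profile. LAMP5 averaged 7.96 with empty vector, 9.77 in wild type and 7.62 in T286A. CBLN2 averaged 8.54, 9.45 and 8.60. Both, like FMN2, were highest in the wild-type arrays. Unlike FMN2, both stayed well above the background mark of 4.77 in the other groups.

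The genes most like FMNL2 were CCL22 (0.0932), EFNA5 (0.100), EGR1 (0.103) and PRL (0.104). CCL22, a chemokine that draws T cells, averaged 10.55 with empty vector, 9.42 in wild type and 10.32 in T286A. EGR1, an immediate early transcription factor, averaged 9.0, 7.62 and 8.87. All 5 profiles had their lowest value in wild-type replicate 2. The other genes were chosen for likeness to FMNL2, so a shared lowest array is partly built in. That array also had the lowest median of the 8, at 5.47. These likenesses are descriptions over 8 arrays that share 3 groups, and many genes that separate the groups alike will score near one another.

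**Figure D5:**
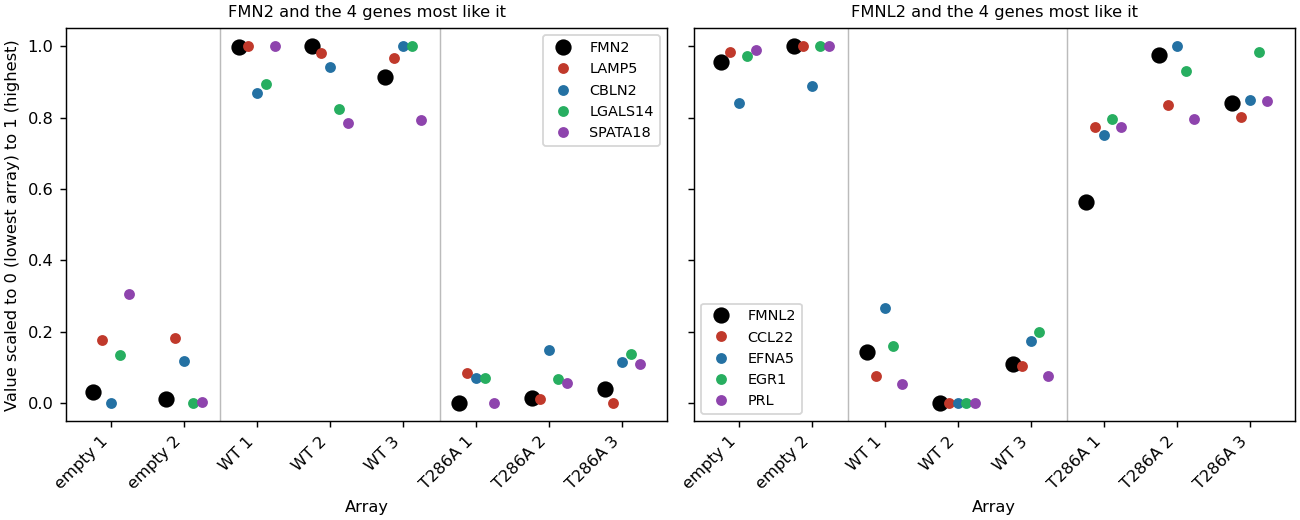
Values scaled to 0 in the lowest and 1 in the highest of the 8 arrays for FMN2 (left) and FMNL2 (right), in black, with the 4 genes most like each in colour. On this scale the left panel is high in the 3 wild-type arrays alone. In the right panel all 5 genes, 4 of them chosen for likeness to FMNL2, are at 0 in wild-type replicate 2.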

How the data were processed

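RNA of 8 samples was hybridised to Affymetrix human expression arrays. The deposited values are on a log2 scale. The submitters' processing notes name RMA and R 3.5.0 for that step. It removes background, equalises probe intensities between arrays and combines the probes of a set, so a shift in total RNA per cell is lost and background makes fold changes of dim probe sets too small. Precision is limited by the number of arrays. In the table were 48864 probe sets, of which 10 controls were left out, and no value was missing. Probe sets were named from the platform's annotation, and 0 columns were unused.

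All 48854 probe sets were fitted with lmFit and eBayes of limma 3.58.1, under R 4.3.3, with a mean per group over the 8 arrays, with 5 residual and 3.6 prior degrees of freedom. Each adjusted p is two-sided, from limma, with the Benjamini-Hochberg correction over all probe sets, and a probe set was called under 0.05. The fit was tested on simulated data. Members and gene lists were chosen with earlier results of these data known. Named genes are all members, the other formins, up to 4 called genes with the largest change per list and comparison (or the 2 with the smallest p where none was called), the 3 nearest measured genes on each side, and the 4 most alike. Not every gene this rule names is printed, and 1 gene list is not reported here. Alternatives covered 1 probe set per gene, a filter on low values, the prior, array weights, scaling, the groups fitted, the replicate number as a block, and leaving out each array.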

Additional observations from a re-analysis of the deposited data

How the results depend on the processing

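The 141 differences of the member probe sets had 2064 values under alternative settings. Differences near 0 could change sign. In wild type against empty vector, FMN1 11740166_at (-0.03) ran from -0.10 to 0.05, and FMNL1 11763733_x_at (-0.03) from -0.27 to 0.22. Among the members with a test (123 differences, 1800 values), 23 values lost the threshold and 5 gained it, all of DIAPH3. FMN2 and FMNL2 have no p in that tally, so calls of theirs that were lost show only in the counts that follow. The count of member calls in wild type against empty vector was 4, and 2 to 4 when 1 array was left out. In T286A against empty vector it was 2 (both DIAPH3), but 1 with the brightest probe set per gene (where it counts genes), 1 with arrays centred on their median, and 0 with arrays centred on housekeeping genes, with only the groups of the comparison, with the replicate block and with any array left out. In T286A against wild type it was 4, but 2 with the brightest probe set per gene, 2 with only probe sets at or above the median level, and 2 to 4 with 1 array left out.

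Over all probe sets, 390 were called in wild type against empty vector (122 higher, 268 lower), with 804 under the filter on low values, 1129 with a prior that follows the level, 88 with only 2 groups fitted, and 41 to 257 with 1 array left out. The 62 of T286A against empty vector (40 higher, 22 lower) became 97 with the brightest probe set per gene, 608 under the filter, 988 with that prior, 331 with array weights, 36 with median centring, 1 with only 2 groups fitted, and 1 to 30 with 1 array left out. The 257 of T286A against wild type (162 higher, 95 lower) became 438, 809, 157 and 90 to 165 under the filter, the prior, the fit of 2 groups and the left-out arrays. With the replicate block the 3 counts were 102, 1 and 122. The cause of these changes was not tested. Centring moved the split of directions: 190 higher and 206 lower in wild type against empty vector with median centring, 12 higher and 20 lower (32 in all) in T286A against empty vector with housekeeping centring, and in T286A against wild type 140 and 137 with median or 117 and 119 with housekeeping centring.

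The deviations of same-numbered arrays of different groups had correlations of -0.08 to 0.12 over 7 pairs, 1 of them over 0.1. Over the 14 pairs with different numbers they ran from -0.12 to 0.12. The empty vector arrays mirrored each other (-0.07 and 0.07 with wild-type replicate 1), so the pairs are not independent. Whether the numbers pair the samples therefore cannot be decided from these correlations. With 1 empty vector array left out, the remaining one is assumed to vary like the other groups.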
